A study of Homo sapiens with 14 samples.

Results

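FITM2, COL6A1, PCK1, FAM71F2 and OSCP1 are 5 protein-coding genes chosen by their group means in K562 cells, which stood apart mainly in the TASOR2 knockdown, and found in the table by name. They are 5 of 35805 gene rows in the deposited table and 5 of 16433 genes tested. The values that chose them are the 6 group means given here, so their differences between groups are a description and carry no test. FAM71F2 and OSCP1 entered the tested genes only through the TASOR2 mean, since all their other means were below 0 on the log2 scale, and had to differ for that reason.

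K562 is an established human leukaemia cell line of erythroid character, and every group here carried dCas9-KRAB, an inactive Cas9 fused to a repressor domain that lowers transcription where a guide RNA places it. The 6 groups were untransduced cells, cells with a guide to AAVS1 (sgAAVS1, the negative control), and cells in which guides lowered TASOR, TASOR2, MPP8 or PPHLN1 (Periphilin). Transduced cells were harvested for total RNA on day 7. The labels list 14 libraries, 1 for each guide in a knockdown, and do not say whether libraries of a group came from separate cultures. Because each deposited value is a mean over a group, no SD, n or test over libraries is given.

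HUSH is a complex of TASOR, MPP8 and Periphilin that silences transposons and some genes through chromatin. HUSH2 is its counterpart in which TASOR2 takes the place of TASOR, with MPP8 and Periphilin shared. FITM2 is a membrane protein of the endoplasmic reticulum that promotes lipid droplet formation, and COL6A1 is a chain of collagen VI, which assembles with COL6A2 and COL6A3 in the extracellular matrix. PCK1 is the cytosolic phosphoenolpyruvate carboxykinase, the rate-controlling enzyme of gluconeogenesis in liver and kidney. FAM71F2, now named GARIN1A, belongs to a family of Golgi proteins that bind RAB2, and OSCP1 is organic solute carrier partner 1.

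The upstream promoter sequence is shown for FITM2 and FAM71F2, the 2 members found in the RefSeq promoter table (GRCh38.p14). FITM2 was lower in TASOR2 and FAM71F2 higher, and their promoters differ in CpG content. Whether CpG content goes with the direction was not tested. Each run holds the 250 bases before the RefSeq start, 5′ to 3′ on the gene's own strand, with CG dinucleotides in capitals. The FITM2 run is chr20:44311203-44311452 on the minus strand, and the FAM71F2 run is chr7:128672042-128672291 on the plus strand.
FITM2: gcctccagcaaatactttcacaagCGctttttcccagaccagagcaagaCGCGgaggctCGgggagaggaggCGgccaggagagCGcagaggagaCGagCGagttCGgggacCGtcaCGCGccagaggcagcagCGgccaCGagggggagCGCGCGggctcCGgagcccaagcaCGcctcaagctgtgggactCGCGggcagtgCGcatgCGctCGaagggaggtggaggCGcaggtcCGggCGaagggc
FAM71F2: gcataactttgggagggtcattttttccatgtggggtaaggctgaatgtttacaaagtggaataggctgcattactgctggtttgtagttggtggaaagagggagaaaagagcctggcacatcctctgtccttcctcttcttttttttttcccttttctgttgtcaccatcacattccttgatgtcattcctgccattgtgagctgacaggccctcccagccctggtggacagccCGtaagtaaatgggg
FITM2 holds 27 CG dinucleotides in this window, the 82.3rd percentile of 35116 RefSeq promoters, and FAM71F2 holds 1, the 6.06th percentile, beside a median of 11. GC content is 69.2% for FITM2 and 47.6% for FAM71F2. Of 3 short motifs searched on both strands, neither window holds the GC box GGGCGG, which 42.6% of all promoters of this length hold. Neither window has the CCAAT box (32.0% of promoters). The TATA box, searched as TATAAA, is also not in them (10.7% of promoters).

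All values are group means of log2 reads scaled to library depth (close to RPM), and a value after ± is how far the 95% interval for counting error reaches on either side. That interval covers no other error. To be called, a gene had to differ by at least 1 on the log2 scale, have its higher mean above 0, and keep 0 outside the interval. The geometric mean depth per library was between 5857937 reads in TASOR2 and 7406968 in untransduced cells, if the scale is RPM. The TASOR2 mean covers 2 libraries where the labels list 3 guides. FAM208B, the table's name for TASOR2, had a mean of 6.03 in its knockdown and 7.45 in sgAAVS1, and each of the other 3 targeted genes was also lowest in its own knockdown. The 15 erythroid markers listed for K562 were above 0 in every group, with a summed log2 level between 10.78 and 11.05. No hepatocyte, adipocyte or ciliated and spermatogenic marker had a mean above 0 in any group. Of 7 fibroblast markers 2, COL1A1 and COL1A2, were above 0 in every group, and the summed log2 level of the list was 5.80 in TASOR2 and 5.87 to 6.37 in the other groups, while LUM and PDGFRA had no reads in any group. The summed log2 level of 3 lymphoid markers ran from 3.70 in TASOR2 to 4.40 in MPP8. The part of these markers in the results was not tested.

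FITM2 (chromosome 20, 44302838 to 44311169 on hg38, minus strand) had a mean of 3.91 in untransduced cells, 3.76 in sgAAVS1, 4.17 in TASOR, 3.98 in MPP8 and 3.94 in PPHLN1. Its TASOR2 mean was 1.35. The 5 other means lay close together, and no neighbouring pair among them differed beyond counting error, although TASOR exceeded sgAAVS1 by 0.41 ± 0.25. TASOR2 differed from sgAAVS1 by -2.41 ± 0.55, a level of 18.8% of the control. Against the other knockdowns the differences were -2.82 ± 0.55 from TASOR, -2.63 ± 0.56 from MPP8 and -2.59 ± 0.56 from PPHLN1.

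COL6A1 (chromosome 21, 45981737 to 46005050, plus strand) had the widest difference of the 3 lower genes. Its means were 2.18 in untransduced cells, 1.42 in sgAAVS1, 2.13 in TASOR, 2.17 in MPP8, 2.31 in PPHLN1 and -1.39 in TASOR2. The TASOR2 mean was -2.81 ± 1.40 from sgAAVS1 and -3.57 ± 1.38 from untransduced cells. The sgAAVS1 mean was itself the lowest of the 5 others, 0.70 ± 0.54 under TASOR, the next in order. The remaining 4 means did not differ beyond counting error between neighbours in the order.

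PCK1 (chromosome 20, 57561080 to 57568112, plus strand) was the third lower gene. Its means were 2.28 in untransduced cells, 2.05 in sgAAVS1, 1.73 in TASOR, 2.33 in MPP8 and 2.75 in PPHLN1, against -0.35 in TASOR2. The difference from sgAAVS1 was -2.40 ± 0.99, and from TASOR, the nearest group, -2.08 ± 1.02. PCK1 also varied among the other groups, with PPHLN1 above TASOR by 1.03 ± 0.52. No pair next to each other in the order of those 5 means differed beyond counting error.

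FAM71F2 (chromosome 7, 128672288 to 128686875, plus strand) was near the limit of detection outside TASOR2. Its means were -1.60 in untransduced cells, -1.30 in sgAAVS1, -1.504 in TASOR, -2.14 in MPP8 and -2.58 in PPHLN1, none of which differed from the next beyond counting error. In TASOR2 the mean was 1.53, which was 2.83 ± 1.14 above sgAAVS1. The reads behind the MPP8 and PPHLN1 means can be given exactly: 0 and 2 reads in the MPP8 libraries, and 1 read in each PPHLN1 library. At least 34 reads over both libraries lie behind the TASOR2 mean, beside 2 reads in either of those groups.

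OSCP1 (chromosome 1, 36415827 to 36450451, minus strand) did not stand apart from every group. Its means were 0.44 in TASOR2, -0.30 in TASOR, -1.10 in untransduced cells, -2.21 in sgAAVS1, -2.58 in PPHLN1 and -2.64 in MPP8. TASOR2 exceeded sgAAVS1 by 2.64 ± 1.58, MPP8 by 3.08 ± 2.17 and untransduced cells by 1.53 ± 1.29. It was only 0.73 ± 1.10 above TASOR, which did not pass the rule. The TASOR mean was itself 1.91 ± 1.64 above sgAAVS1, but both means were below 0, so it was not called. The sgAAVS1 mean rests on 3 reads, all in 1 of its 3 libraries, and at least 16 reads lie behind the TASOR2 mean.

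**Figure D1:**
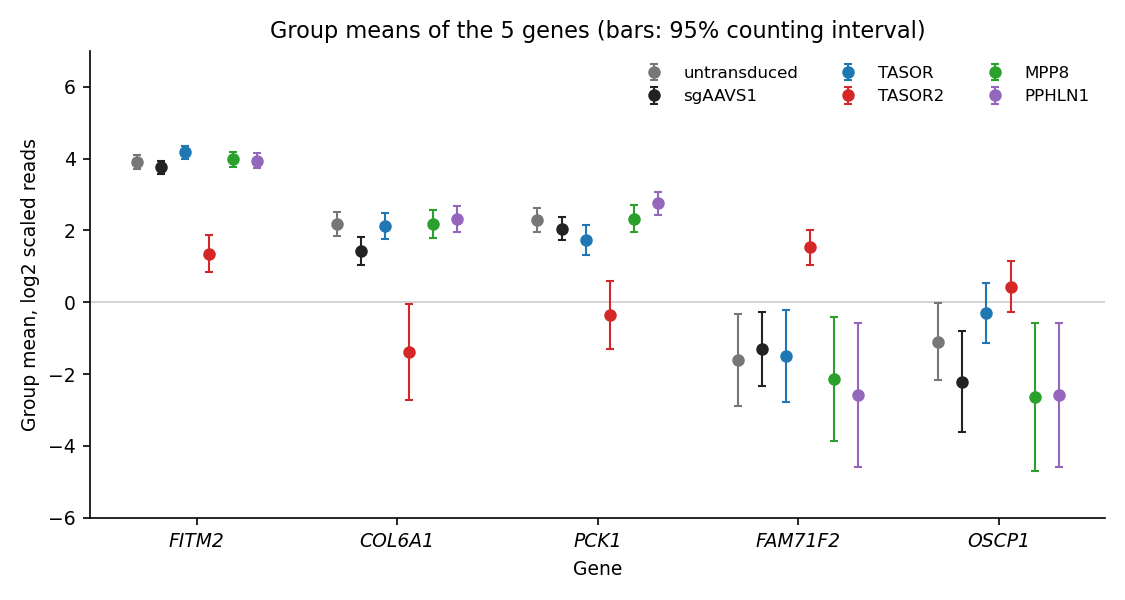
Group means of the 5 genes in log2 scaled reads, with the 6 groups in colour and bars for the 95% counting interval of each mean. The TASOR2 points of FITM2, COL6A1 and PCK1 lie at 1.35, -1.39 and -0.35, under all other points of the same gene, and that of FAM71F2 at 1.53 lies above them, while the OSCP1 intervals of TASOR2 and TASOR overlap.

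All 5 members were called in TASOR2 minus sgAAVS1, 3 lower and 2 higher, where 2.03% of all tested genes were called lower and 2.26% higher. The same contrast chose the members, so nothing is read from that count. The 3 lower genes were also called against each other group, where 3.26% (untransduced), 5.23% (TASOR), 3.96% (MPP8) and 5.07% (PPHLN1) of tested genes were lower. FAM71F2 and OSCP1 were called higher against untransduced cells (1.37% of tested genes), MPP8 (1.52%) and PPHLN1 (1.42%), and FAM71F2 alone against TASOR (1.39%). FAM71F2 and OSCP1 could not be called in contrasts without TASOR2, since all their other means were below 0. In the other 3 knockdowns 0 of the 5 were called against sgAAVS1. There the share of tested genes called higher and lower was 1.95% and 0.341% in TASOR, 1.65% and 0.316% in MPP8, and 2.88% and 0.615% in PPHLN1, and in untransduced cells, also with 0 of the 5, it was 1.38% and 0.237%. A stricter condition asked that the TASOR2 mean pass the rule in the same direction against each of the 5 other groups. It held for 138 tested genes that were lower (0.84%) and 59 that were higher (0.359%). Of the members 4 met it, all but OSCP1. When genes were ordered by their smallest gap to any other group, COL6A1, FITM2 and PCK1 took places 1, 2 and 4 of the 138, and FAM71F2 place 1 of the 59. The members were chosen on these same means, and FAM71F2 passed the filter only through TASOR2. Nothing is read from the number of members that met the condition or from these places. The same condition held for 16 lower and 10 higher genes in PPHLN1, and for 0 to 13 in either direction in each other group.

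**Figure D2:**
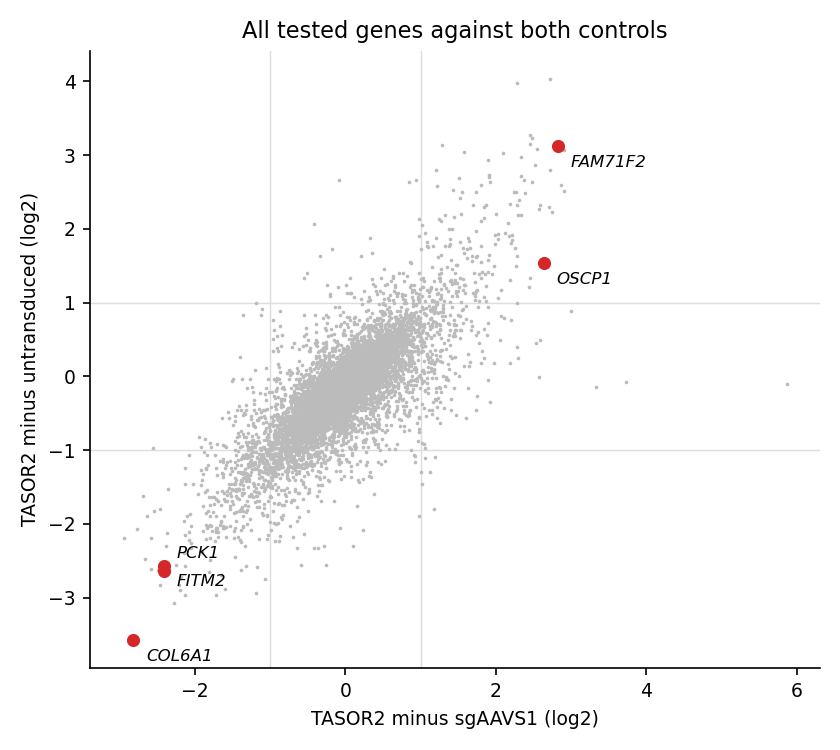
Each of the 16433 tested genes by its TASOR2 minus sgAAVS1 difference (horizontal) and its TASOR2 minus untransduced difference (vertical), both in log2 units, with the 5 genes in red and lines at 1 and -1. COL6A1 lies at -2.81 and -3.57 at the lower left edge, and OSCP1 at 2.64 and 1.53 is nearer the lines against untransduced cells.

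The means also carry some information on single libraries. A mean of log2 whole reads over 2 libraries fixes the product of their reads, so only certain pairs of whole numbers can have given it. For COL6A1 in TASOR2 the sole pair is 1 and 5 reads. At the sgAAVS1 level a TASOR2 library of mean depth would hold 15.7 reads, and both numbers are under it. The depth of each single library is not known, so reads here and below are not adjusted for it. For PCK1 the pairs are 3 and 7 or 1 and 21, and both numbers of either pair are under the 24.2 reads of the sgAAVS1 level.

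FITM2 is different, because no even pair gives its TASOR2 mean. The pairs are 6 and 37, 3 and 74, 2 and 111, or 1 and 222 reads. The libraries therefore differed by at least 6.17-fold in reads, and 1 of them held no more than 6 reads. The sgAAVS1 level corresponds to 79.3 reads. The higher number is under that level in the pairs with 37 or 74 reads and over it in the others. Whether both TASOR2 libraries were lower for FITM2 cannot be told from the mean. In the other groups of 2 libraries even pairs exist for FITM2: 100 and 124 in untransduced cells, 114 and 137 in TASOR, 91 and 96 in MPP8, and 87 and 96 in PPHLN1.

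Means that allow no pair closer than 6.17-fold were rare. In TASOR2, 7888 tested genes had a geometric mean of 10 to 400 reads. Of these, 6 could only come from libraries at least 6.17-fold apart in reads: IL21R, CTD-2587H24.10, HECW2, CIRBP-AS1, MIR663AHG and FITM2. In PPHLN1 there was 1 such gene, SPIDR, and in untransduced cells, TASOR and MPP8 there were 0 among 7520 to 7949 genes. At 3-fold or more the number was 85 in TASOR2, 19 in PPHLN1, 9 in TASOR, 8 in untransduced cells and 3 in MPP8. These are lower bounds on the spread, since each gene was given its most even pair. These genes were named after their values were seen.

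For the higher genes the pairs leave more open. The TASOR2 mean of FAM71F2 can come from 15 and 19 reads, 5 and 57, 3 and 95, or 1 and 285, beside 2.38 reads at the sgAAVS1 level. OSCP1 can come from 7 and 9, 3 and 21, 1 and 63, or 0 and 70 reads, beside 1.27. Even pairs exist for both genes, but the mean does not show that they are the true ones. PCK1 in the TASOR knockdown, where its mean was 1.73, had 10 and 53 reads as its most even pair. Its TASOR libraries were therefore at least 5.3-fold apart in reads.

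**Figure D3:**
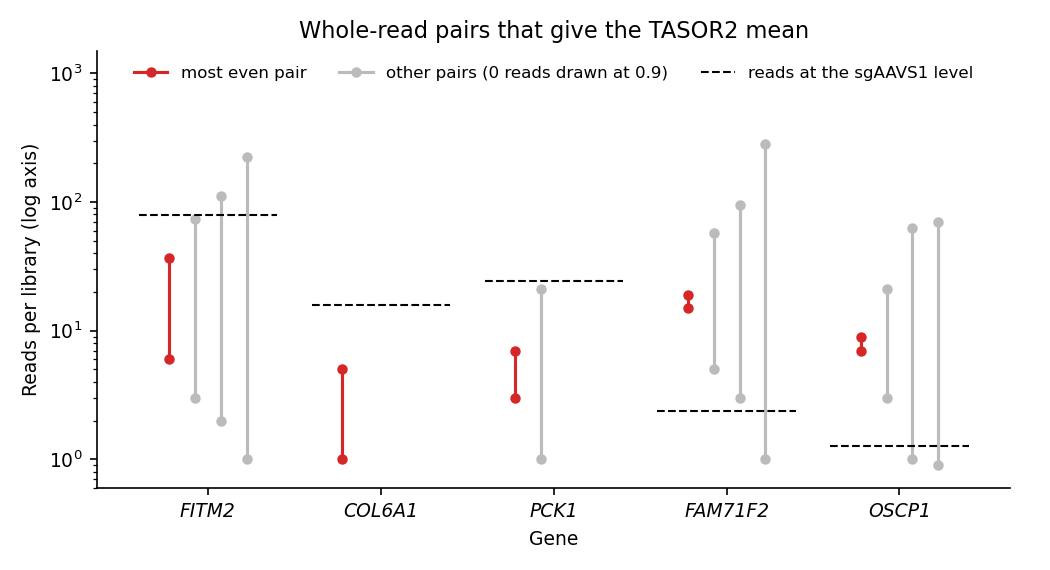
Every pair of whole reads that gives the TASOR2 mean of each gene, drawn as 2 joined points on a log axis of reads per library, with the most even pair in red and the reads at the sgAAVS1 level as a dashed line. The FITM2 pairs start at 6 and 37 reads, the only COL6A1 pair is 1 and 5, and FAM71F2 and OSCP1 have near-even pairs of 15 and 19 and of 7 and 9.

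The TASOR2 differences from sgAAVS1 went with transcript GC content over all genes (Spearman's rho -0.69 across 9830 genes with a mean above 5, which share the same libraries). In untransduced cells the rho was -0.53, and the other knockdowns had positive values, 0.18 in TASOR, 0.30 in MPP8 and 0.33 in PPHLN1. The longest transcripts of FITM2, PCK1, FAM71F2 and OSCP1 have GC contents of 48.3%, 48.7%, 47.2% and 50.2%, near the median of 48.9% over tested genes. COL6A1, at 63.5%, is at the 93.7th percentile. With the GC trend removed, the TASOR2 minus sgAAVS1 differences were -2.42 for FITM2, -2.60 for COL6A1, -2.41 for PCK1, 2.79 for FAM71F2 and 2.67 for OSCP1.

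**Figure D4:**
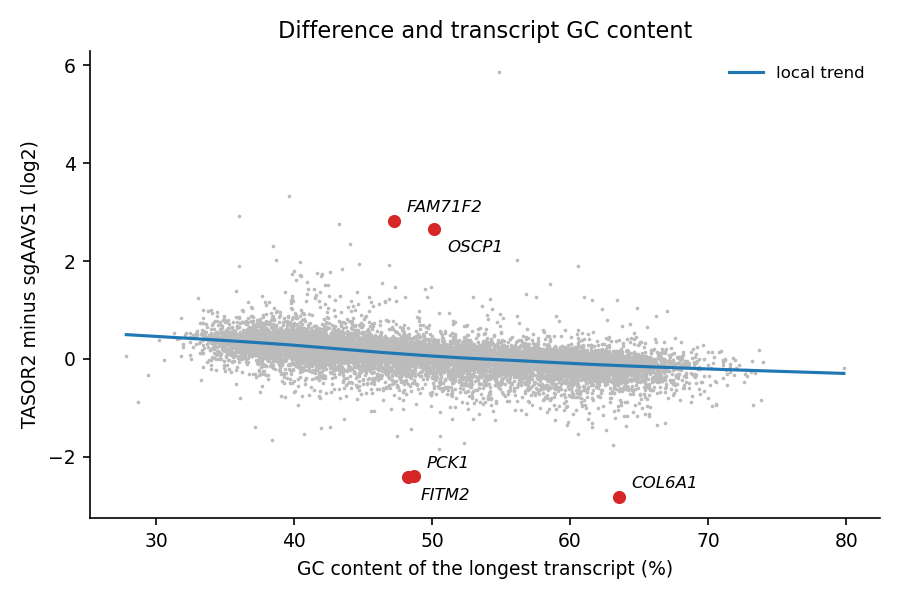
TASOR2 minus sgAAVS1 difference in log2 units against GC content of the longest transcript in percent, for genes with a mean above 3 (grey), the local trend (blue) and the 5 genes (red). At the GC contents of the 5 genes the trend runs from -0.14 to 0.11, and COL6A1 at 63.5% GC and a difference of -2.81 lies far under it.

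Position was not used to choose the members. Within 250 kb of them lay 41 other tested genes, of which 1 was called higher in TASOR2 minus sgAAVS1 and 0 lower. Over all tested genes 2.26% were called higher and 2.03% lower, so the count is near those shares. The gene called was RP11-274B21.10, a lincRNA by its position in GENCODE 29, at chromosome 7, 128667043 to 128668156, on the same strand as FAM71F2 and ending 4.13 kb before its start. Its means were -1.89 in untransduced cells, -0.58 in sgAAVS1, -0.80 in TASOR, -0.61 in MPP8, -1.65 in PPHLN1 and 2.15 in TASOR2, a difference from sgAAVS1 of 2.72 ± 0.89. By the smallest gap to any other group it took place 2 of the 59 genes higher in TASOR2 than in all 5 others, directly after FAM71F2. Its TASOR2 mean can come from 24 and 28 reads, among 12 possible pairs. It too passed the filter only through TASOR2. The rows do not overlap, but whether reads of 1 transcript were counted under both was not tested. The nearest tested gene on the other side, CALU, a calcium-binding protein of the secretory pathway, differed by 0.23 ± 0.06.

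The neighbours of the other 4 members were not called. For FITM2 these are GDAP1L1, 21.9 kb away, at -0.76 ± 0.67, and HNF4A, a liver transcription factor 44.5 kb away, at 0.21 ± 0.59. For COL6A1 they are PCBP3, an RNA-binding protein gene, which had means of -0.44 in sgAAVS1 and -2.05 in TASOR2 (-1.61 ± 1.85), and AP001476.4 at 0.15 ± 1.60. The nearest to PCK1 were CTCFL, a paralogue of the insulator protein CTCF, at 0.12 ± 0.06, and RAB22A, 742 kb away and outside the window, at 0.42 ± 0.09. Beside OSCP1, LSM10, a component of the histone mRNA processing machinery, differed by 0.07 ± 0.14, and MRPS15, a mitochondrial ribosomal protein, by 0.22 ± 0.14.

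**Figure D5:**
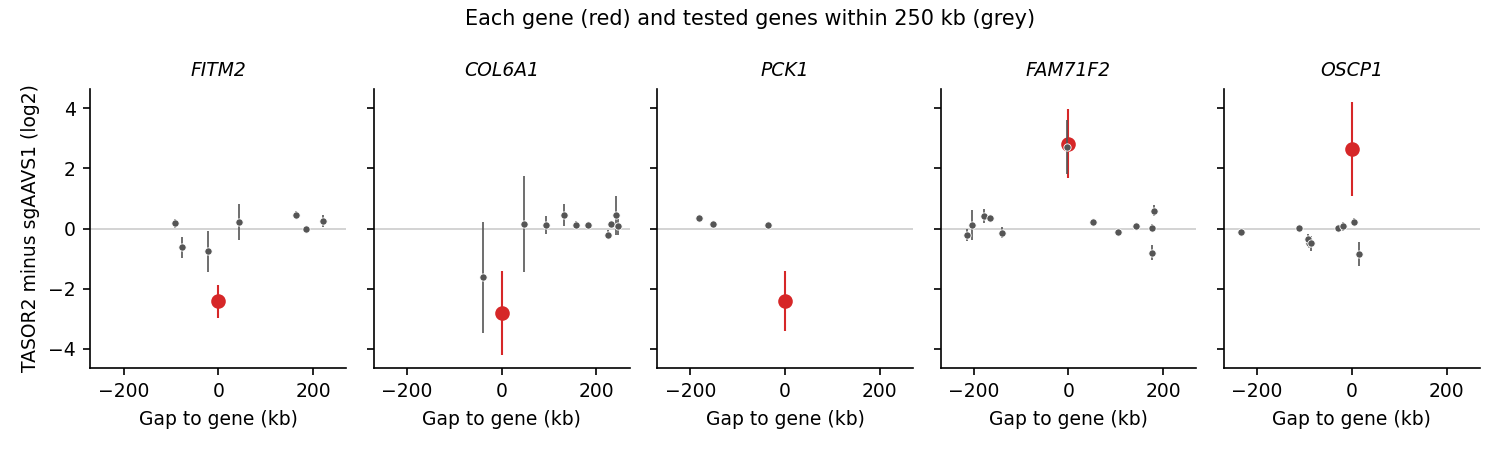
TASOR2 minus sgAAVS1 difference in log2 units, with 95% counting intervals, of each of the 5 genes (red, at 0) and of tested genes within 250 kb (grey), by the gap between gene bodies in kb. RP11-274B21.10 at 2.72 sits almost on the FAM71F2 point at 2.83, and the other neighbours lie between -1.61 and 0.59.

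The genes that work with the members were taken from 6 lists, and their counts stand beside 2.26% of all tested genes called higher and 2.03% called lower in TASOR2 minus sgAAVS1. The member on a list was chosen for its value there, and lists of this size give few calls at those shares. Of 24 lipid droplet genes tested 0 were higher and 1, FITM2 itself, was lower, with a list median of 0.0022 beside 0.07 over all tested genes. Differences short of the rule but beyond counting error were present in the list, 10 above 0 and, with FITM2, 6 below. The share of all tested genes beyond counting error was not taken, so nothing is read from these counts. GPAM, which starts glycerolipid synthesis, differed by 0.69 ± 0.16 and ABHD5, the activator of the lipase ATGL, by 0.67 ± 0.13. For ABHD5 the sgAAVS1 mean was the lowest of the 6 groups. Its TASOR2 mean was 6.27, and the groups other than sgAAVS1 ran from 5.94 in MPP8 to 6.21 in PPHLN1. From untransduced cells ABHD5 differed by 0.28 in TASOR2, given without an interval. G0S2, an inhibitor of ATGL, differed from sgAAVS1 by -0.47 ± 0.18. Of the enzymes that make triglyceride, DGAT2 differed by -0.63 ± 0.47 and DGAT1 by -0.01 ± 0.10. The most abundant of the list were ACSL3, an acyl-CoA synthetase, at 0.24 ± 0.08, LPIN2, a phosphatidate phosphatase, at 0.22 ± 0.06, and PCYT1A, of phosphatidylcholine synthesis, at 0.14 ± 0.07. In TASOR, MPP8 and PPHLN1 against sgAAVS1, 0 of the 24 were called. Against groups other than sgAAVS1, FITM2 was lower in TASOR2 each time. So were DGAT2 and PLIN4 against TASOR, CIDEB against PPHLN1, and PLIN4 against untransduced cells. Of all tested genes, 5.23% were lower against TASOR, 5.07% against PPHLN1, 3.96% against MPP8 and 3.26% against untransduced cells. PLIN4 passed the filter only through untransduced cells and TASOR, and CIDEB only through untransduced cells, MPP8 and PPHLN1. FITM2 was chosen for its low TASOR2 mean, so nothing is read from these calls.

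Of 25 collagen chain genes 1 was lower, COL6A1, and 1 higher, COL7A1, the anchoring fibril collagen, at 1.04 ± 0.39. COL7A1 had means of 2.32 in sgAAVS1, 2.45 in untransduced cells and 3.35 in TASOR2. The other knockdowns were near TASOR2 for COL7A1, at 3.15 in TASOR, 3.21 in MPP8 and 3.04 in PPHLN1. The median of the list was -0.12. Against the other knockdowns more chains were lower in TASOR2. These were 6 of 25 against TASOR (5.23% of all tested genes), 5 against MPP8 (3.96%) and 5 against PPHLN1 (5.07%). COL6A1 and COL28A1 were called each time. COL6A1 was chosen for its low TASOR2 mean, and COL24A1, counted against TASOR and PPHLN1, passed the filter only through those groups. Nothing is read from these counts for that reason. COL28A1 had means of 1.10 in sgAAVS1, 1.40 in TASOR2, 3.49 in TASOR, 2.68 in MPP8 and 3.11 in PPHLN1. Against sgAAVS1, 3 chains were higher in TASOR (COL24A1, COL25A1 and COL28A1), beside 1.95% of all tested genes. In MPP8 2 were higher (COL23A1 and COL28A1), beside 1.65%, and in PPHLN1 3 (COL9A1, COL24A1 and COL28A1), beside 2.88%. In these knockdowns 0 chains were lower, and COL6A1 was not among those called. COL9A1 passed the filter only through PPHLN1, and COL24A1 only through TASOR and PPHLN1, so nothing is read from their calls there. COL9A1, at 1.088 ± 1.087, only just kept 0 outside the interval. Against sgAAVS1 the partners of COL6A1 in collagen VI did not follow it. COL6A2, 93.0 kb downstream on the same strand, had means of 3.45 in sgAAVS1 and 3.57 in TASOR2 (0.12 ± 0.31). COL6A3 had 6.76 and 6.82 (0.06 ± 0.10). Against untransduced cells COL6A2 was at -0.52 and COL6A3 at -0.21, given without intervals, and neither was called. The sgAAVS1 mean of COL6A2 was the lowest of the 6 groups, with 3.64 in TASOR, 4.03 in MPP8 and 3.94 in PPHLN1. For COL6A3 these means were 6.41 in TASOR, 7.29 in MPP8 and 7.07 in PPHLN1. COL18A1 and COL15A1, the basement membrane collagens abundant here, differed from sgAAVS1 by -0.07 ± 0.06 and 0.17 ± 0.12. Of 22 collagen processing genes 0 were called, and among the most abundant P4HB, a prolyl hydroxylase subunit, differed by -0.01 ± 0.06, CRTAP by 0.01 ± 0.07 and COLGALT2 by 0.03 ± 0.06. The median of that list was 0.00096.

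Of 12 gluconeogenesis genes tested 1 was lower, PCK1, and 0 were higher, with a median of 0.01. PCK2, the mitochondrial form of the enzyme, had means of 7.44 in sgAAVS1 and 7.10 in TASOR2, a difference of -0.34 ± 0.09 that did not reach the rule. GOT2 and MDH2, the mitochondrial aspartate aminotransferase and malate dehydrogenase, differed by 0.12 ± 0.08 and 0.08 ± 0.08. Among 9 regulators of the pathway 0 were called, with CEBPB at -0.19 ± 0.09, NR3C1, the glucocorticoid receptor, at 0.26 ± 0.07, and KAT2A, an acetyltransferase, at 0.09 ± 0.11 (list median 0.09). Of 4 tested genes on the list of the FAM71 family and RAB2, FAM71F2 was the sole gene called. FAM71E1 differed by -0.60 ± 0.85, RAB2A by 0.37 ± 0.12 and RAB2B by 0.34 ± 0.15, with a list median of 0.35. The 4 knockdowns share the sgAAVS1 libraries.

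The members' profiles over the 6 group means were compared with those of 1740 tested genes whose means span at least 1 and reach above 1. This is a description over 6 points, which are the means that chose the members. Closest to FITM2 was RP11-486A14.2 (Pearson's r 0.998), followed by ATRN and SPOCD1, both 0.995. ATRN, which encodes attractin, is abundant, with means of 7.43 in sgAAVS1 and 5.86 in TASOR2, a difference of -1.57 ± 0.12. Closest to COL6A1 were PDIA2, a protein disulphide isomerase, RP11-417L19.5 and PAPLN, an extracellular matrix gene, at r of 0.999, 0.997 and 0.997. Their differences from sgAAVS1 were -0.996 ± 0.56, -1.01 ± 0.42 and -0.94 ± 0.22.

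Closest to PCK1 were C4orf45 (r 0.998), LINC00087 (0.993) and RP11-195M16.3 (0.990), at -1.84 ± 1.29, -2.19 ± 0.94 and -1.71 ± 0.71. Closest to FAM71F2 were RP11-119F7.5 (0.993), RP11-96K19.4 (0.991) and RAB30, a Golgi small GTPase (0.975), at 1.24 ± 0.23, 0.98 ± 0.33 and 1.06 ± 0.31. OSCP1 had the loosest matches, OR7D2, an olfactory receptor gene, at r 0.963, RP3-337H4.9 at 0.949 and RP11-283I3.6 at 0.948. OR7D2 shared its higher TASOR mean, with 2.97 in TASOR2, 2.51 in TASOR and 1.97 in sgAAVS1. Of the 1740 genes, 168 had r above 0.95 with FITM2 and 177 with COL6A1, against 15 with FAM71F2 and 1 with OSCP1.

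Each lower gene's profile lay close to those of the other lower genes, with r of 0.985 between FITM2 and COL6A1, 0.958 between COL6A1 and PCK1 and 0.931 between FITM2 and PCK1. OSCP1 and FAM71F2 had an r of 0.80. The members were chosen on these same means.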

How the data were processed

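The submitters' processing notes name cutadapt, Bowtie2 and the build hg38. The sources used here do not give the read counter, annotation release, versions or use of strand. Per the labels' protocols, ribosomal RNA was depleted and a directional library kit was used. The authors deposited 1 table of 6 value columns. The deposited untransduced column is a mean on the log2 scale, per the file headers, and the 5 others are quotients of a group's mean over that column, so multiplying by it gave the group means back.

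The commonest lowest value of a column marks genes with 0 reads, which stand for 0.9 reads. Above it, 100% of the low values checked in each column were means of log2 whole reads over 2 libraries, or 3 for sgAAVS1, within a relative tolerance of 1e-06. Depths assume RPM. The linear values of a group sum to between 1180740 and 1320640, so that scale is approximate, but recovered reads do not depend on it. Genes with a mean above 0 in any group were tested, keeping for a repeated symbol the row of highest mean (16 rows dropped). Counting intervals take Poisson error with reads spread evenly over libraries. With no values of single libraries, differences have no test. The rule of size and the read recovery were tested on simulated data, in which libraries of a group differed by Poisson error only. Changes were put only into genes with more sgAAVS1 reads than COL6A1, FAM71F2 and OSCP1 have. The simulation therefore does not cover changes in genes that low, or libraries as uneven as those of FITM2 in TASOR2.

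Transcript GC content came from GENCODE 29, matched for 98.9% of tested genes, and its trend from a lowess fit (statsmodels 0.14.6, fraction 0.3). Named genes were the members, targeted genes, nearest and called neighbours, 3 most alike profiles per member, and called or 3 most abundant members of 6 lists. DGAT1, DGAT2, GPAM, ABHD5, G0S2, COL6A2, the chains called in other contrasts and the genes with uneven libraries were added after their values were seen. The members and lists were chosen with earlier results of these data known.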

Additional observations from a re-analysis of the deposited data

How the results depend on the processing

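The 5 members kept their direction under median centring, quantile normalization, GC trend removal and untransduced cells as the control, and all 5 were called in each. With a minimum of 2 on the higher mean, 2 of the 5 were called, FITM2 and PCK1, since the other 3 have no mean above 2 in this contrast. The 706 genes called in TASOR2 minus sgAAVS1 (372 higher, 334 lower) became 245 with that minimum, 254 at a log2 difference of at least 1.5 and 1679 at 1.5-fold. The 197 genes apart in TASOR2 became 78, 59 and 549 under the same settings, and the 4 members among them became 1, FITM2, with the minimum of 2. Median centring gave 303 higher and 447 lower, and untransduced cells as the control 225 and 535. Of 16258 genes with a GC value, 366 higher and 329 lower became 314 and 283 with the trend removed, of which 290 and 244 had been called before. The collagen chain count became 1 after median centring, and against untransduced cells the lipid droplet and collagen processing counts became 2 and 1. An interval from the most uneven pair of reads, chosen after seeing the data, left all 5 called. It covers counting error only and leaves out the difference between the libraries of such a pair. Whether both TASOR2 libraries were lower for FITM2 cannot be told from it either. No paired analysis was possible because the table holds group means, and leaving out libraries was not run for that reason. Depth limits FAM71F2 and OSCP1 most, with 1 to 3 reads in some groups.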
